A study of Canis lupus familiaris with 28 samples.

Results

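The genes for proteins of the cytosolic ribosome were described in the blood of dogs with atopic dermatitis (AD) and of healthy dogs. The genes were chosen by name, as array symbols that begin with RPL or RPS and a digit, or with RPLP0 to RPLP2, without the RPS6K kinases. This rule found 49 gene names among 34382 on the array, on 90 probes and 94 spots. For each gene the probe with the highest mean signal was used, and all 49 genes had such a probe after the filter on signal. Of the 49 names, 26 are proteins of the large subunit, 18 are proteins of the small subunit and 1, RPLP0, is the base of the stalk. The other 4 match the pattern of the name and were kept apart as paralogs or other proteins. RPL3L and RPL22L1 are paralogs of ribosomal proteins, RPL7L1 is a nucleolar relative of RPL7, and RPS19BP1 is a protein that binds RPS19.

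RNA came from whole blood of 20 AD dogs, privately owned patients of various breeds, and of 8 healthy dogs, which were blood donors. Both sexes were in either group, with more females than males among AD dogs and more males than females among healthy dogs. Each dog was hybridized to its own Agilent canine array with Cy5, against Cy3-labelled RNA pooled from 13 other healthy dogs. The study compared the groups to find genes whose blood expression differs in AD. It also counted lymphocyte subsets by flow cytometry and measured cytokines in plasma, which are not used here. No treatment, genotype or time point parts the dogs within a group, and the labels give neither age nor breed for an array.

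Ribosomes translate messenger RNA and consist of a small subunit, which reads the message, and a large subunit, which joins the amino acids. The stalk of the large subunit, with RPLP0 at its base, recruits the factors that drive elongation. Ribosomal protein mRNAs are among the most abundant of a cell and share a pyrimidine tract at their start, through which growth signals control their translation together. Among blood leukocytes, lymphocytes are known for higher levels of these mRNAs than mature neutrophils. In a bulk blood sample, fewer cells of a type and less RNA per cell cannot be told apart.

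There were 8 slides and 5 scan days, and no slide or day held both groups. Healthy dogs were all scanned on day 2. The 6 AD dogs of scan day 5 had a dog signal well above background for 51.7% to 63.2% of probes, against 84.3% to 90.3% in healthy dogs. One other AD dog, number 14, was at 60.2%. Group and scan day cannot be told apart. Markers of the expected blood cells were present. The 3 leukocyte genes (PTPRC, CD52 and CORO1A) and all 7 measured erythroid genes were well above background on all 28 arrays. Of the other measured markers, only the B cell genes PAX5, BLK and CR2 fell short of this, at 26, 24 and 24 arrays. MPO and TUBB1 did not pass the filter on signal. The labels name whole blood, while the title of the series speaks of nuclear cells.

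Probe sequences carry part of the findings, so a few are printed, 5′ to 3′, with capitals for bases that lie in a stretch of at least 16 bases also found on another probe of the array, on the same strand. The stretches come from the array files, and positions are those of the canFam3 build as printed there. Exon or UTR of a probe is not given in the sources used here. All 49 symbols matched a RefSeq gene of the dog assembly UU_Cfam_GSD_1.0 on the same chromosome. The first set are 30 bases of each of the 3 probes for RPL22L1, shown because they disagreed. The brightest probe lies at chr34:35298828-35298887, and its printed part is bases 31 to 60.
RPL22L1 brightest: cctctctgcaTTTCTCATGAATAAATAAAA
RPL22L1 second: AGGGCTTTGCTTCCTAAGAAAATAAATGTA
RPL22L1 last: AGGGCTTTGCTTCCTAAGAAAATAAATGTA
The second and the last probe, at chr34:35299043-35299102 and chr34:35299027-35299086, overlap and are identical in the part shown. The capitals of the brightest probe were shared with 15 probes under other names. The next set are 2 RPL15 probes that are offset by 6 bases, at chr23:19827396-19827455 and chr23:19827402-19827461.
RPL15 brightest: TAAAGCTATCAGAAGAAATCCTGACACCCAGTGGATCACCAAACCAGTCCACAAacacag
RPL15 second: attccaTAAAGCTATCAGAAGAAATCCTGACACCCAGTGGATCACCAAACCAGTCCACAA
They are shown because their log2 fold changes are set side by side with those of other probe pairs. The last set are the probes of the most and least variable genes between AD dogs, and of RPL35, the gene with the largest positive difference. For RPS27A (chr10:56135245-56135304), RPL7 (chr29:21881467-21881526) and RPL28 (chr1:102301929-102301988) the whole probe is given. For RPS14 (chr4:58667905-58667964), RPL26 (chr5:33157670-33157729) and RPL35 (chr9:58158518-58158577) it is the first 30 bases.
RPS27A: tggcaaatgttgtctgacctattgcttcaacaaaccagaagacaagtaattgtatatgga
RPL7: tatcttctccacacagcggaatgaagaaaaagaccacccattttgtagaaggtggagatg
RPS14: ccgtctgtgaacaggattcttcaaactatt
RPL28: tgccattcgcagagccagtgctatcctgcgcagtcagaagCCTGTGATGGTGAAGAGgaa
RPL26: ttgaaaaatagtcagagtgctcaactggta
RPL35: gagcggctgtaccctctgcggaagtatgcg
Of the 49 probes used, 15 (30.6%) shared a stretch with a probe of another name, against 8.44% of all 43603 probes. Of these 15, 11 shared it with 1 probe only. RPL22L1 alone shared it with 10 or more, as did 0.147% of all probes.

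No ribosomal protein gene passed the test between AD and healthy dogs after correction for all probes. With limma, 0 of the 49 genes reached the threshold of 0.085 for the adjusted p, and 0% of the 30202 probes tested did. The smallest adjusted p among the genes was 0.589. Before adjustment, 4 genes had a p under 0.05 (6.12% of all probes), 3 of them with a higher mean in AD dogs (1.65% of all probes) and 1 with a lower mean (4.46% of all probes). The 3 were RPS14, RPL35 and RPS19BP1, and the other was RPL22L1. Relative to the common reference, the mean log2 ratio was higher in AD dogs for 41 of the 49 genes, whereas it was higher for 47.9% of all probes. The median log2 fold change, AD minus healthy, was 0.15 over the 49 genes and -0.0096 over all probes. Most of the genes varied together across dogs, as described below, so counts of genes here and by subunit are not independent observations. The values of the groups overlapped for every one of the 49 genes, as they did for all 30202 probes (0% not overlapping).

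The size of this shift changed with the dogs and settings used. Without the 6 AD dogs of scan day 5, 30 of 49 genes had a higher mean in AD dogs, the median was 0.055 and 2 genes had an unadjusted p under 0.05, both with a lower mean, against 9.29% of all probes. When healthy dogs 5 to 8, the dogs of slide 3, were left out, 31 genes were higher and the median was 0.067. With limma's array weights 27 genes were higher, and the median was 0.027. With normexp background correction followed by loess, the median was 0.25 and 11 genes had an unadjusted p under 0.05, against 5.58% of all probes, with 0 past the adjusted threshold.

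**Figure D1:**
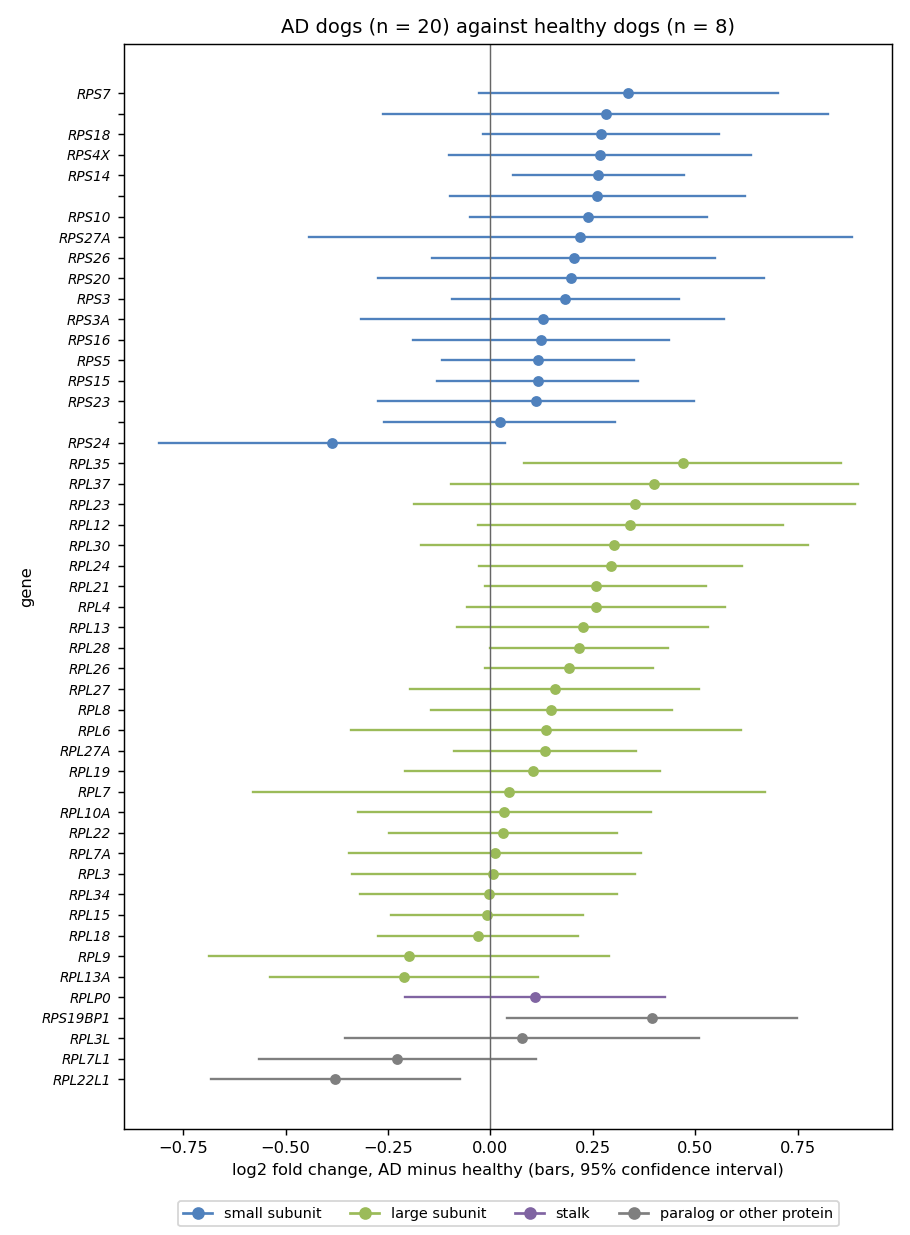
Log2 fold change, AD minus healthy, of the brightest probe of each of the 49 genes on the horizontal axis, with 95% confidence intervals as bars and the genes grouped by role. Most points lie right of 0, and the intervals of RPS14, RPL35, RPS19BP1 and RPL22L1 leave out 0 before any correction.

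In the small subunit, 17 of 18 genes had a higher mean in AD dogs, against 47.9% of all probes. The median log2 fold change of the 18 was 0.20, and RPS24 was the 1 gene with a lower mean. RPS14 is a protein of the small subunit whose loss on one chromosome copy impairs red cell formation in human 5q- syndrome. Its log2 ratio was -0.074, 0.27 and 0.67 in AD dogs (lowest, median and highest) and -0.38, 0.080 and 0.33 in healthy dogs. Nearly all AD dogs lay above the mean of healthy dogs (19 of 20), but most healthy dogs were within the range of AD dogs. The difference between the means was 0.26 on the log2 scale (standard error 0.10, n = 20 and 8), with an unadjusted limma p of 0.0153 and an adjusted p of 0.589. Over all alternatives it was 0.14 to 0.44. RPS18, at the head of the small subunit, had -0.68, 0.11 and 0.71 in AD dogs and -0.54, -0.21 and 0.14 in healthy dogs. Its log2 fold change of 0.27 (standard error 0.14) had an adjusted limma p of 0.843. RPS24, which takes part in the maturation of small subunit RNA, was at -1.86, -0.49 and 0.47 in AD dogs and -0.66, -0.25 and 0.58 in healthy dogs. AD dogs were lower than the mean of healthy dogs in 16 of 20, and AD dogs 8 and 14 were the lowest. The log2 fold change was -0.39 (standard error 0.21), with an adjusted limma p of 0.845. The median processed signal of this RPS24 probe in the dog's channel was 437.

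In the large subunit, 21 of 26 genes had a higher mean in AD dogs, against 47.9% of all probes. The median log2 fold change of the 26 was 0.14. RPL35 lies near the exit of the peptide tunnel. Its log2 ratio was -0.47, 0.28 and 0.94 in AD dogs and -1.30, -0.20 and 0.61 in healthy dogs. The lowest value was that of healthy dog 5. The log2 fold change was 0.47 (standard error 0.19), higher in 17 of 20 AD dogs than the mean of healthy dogs, with an unadjusted limma p of 0.0192 and an adjusted p of 0.624. It was 0.31 without healthy dog 5, and 0.39 and 0.20 with the other 2 probes of the gene. RPL37, a small protein with a zinc finger, was at -1.45, -0.043 and 1.15 in AD dogs and -1.19, -0.22 and 0.28 in healthy dogs. This gave a difference of 0.40 (standard error 0.24), and the lowest values were those of AD dog 7 and healthy dog 5. RPL28 was at -0.25, 0.25 and 0.50 in AD dogs and -0.44, -0.058 and 0.34 in healthy dogs, a difference of 0.22 (standard error 0.11) with an unadjusted limma p of 0.0502. RPL21 and RPL26 had log2 fold changes of 0.26 (standard error 0.13) and 0.19 (standard error 0.10), with adjusted limma p-values of 0.838 and 0.843. For RPL26, 18 of 20 AD dogs were above the mean of healthy dogs, and the values were -0.29, 0.13 and 0.53 in AD dogs against -0.29, -0.026 and 0.15 in healthy dogs. For RPL21 they were -0.64, 0.064 and 0.54 against -0.80, -0.24 and 0.23. In the dog's channel alone RPL26 had a difference of -0.18.

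Of the stalk, RPLP0 was at -0.77, -0.046 and 0.95 in AD dogs and -0.66, -0.23 and 0.35 in healthy dogs. AD dogs spanned the whole range of healthy dogs. Its log2 fold change was 0.11, with a 95% confidence interval from -0.21 to 0.43 and an adjusted limma p of 0.908. RPLP1 and RPLP2, the acidic proteins that bind RPLP0, have no probe under their names. Probes described as similar to human RPLP1 gave 0.11 and 0.048, and those described as RPLP2 gave 0.18 and 0.20, none with an unadjusted p under 0.05. RPL5 and RPL11, which bind MDM2 when ribosome assembly fails, were likewise not listed by name. A probe described as partly similar to RPL5 gave 0.27 (standard error 0.24).

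RPS19 served as a reference gene in the real-time PCR of the study, together with GAPDH, and has no probe under its name. The probe described as similar to human RPS19 had a mean of 0.14 ± 0.24 (SD) over 20 AD dogs and of -0.040 ± 0.24 (SD) over 8 healthy dogs. The difference was 0.18, with a 95% confidence interval from -0.046 to 0.41 and an adjusted limma p of 0.866. For GAPDH it was 0.083, with an interval from -0.33 to 0.49. The spread between AD dogs was larger for GAPDH (SD 0.54) than for the RPS19 probe (SD 0.24).

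The 4 paralogs or other proteins were split, with 2 higher and 2 lower means in AD dogs. RPS19BP1 was at -0.65, -0.077 and 0.95 in AD dogs and -0.57, -0.40 and -0.17 in healthy dogs. All 8 healthy dogs were below the reference pool, while AD dogs lay on both sides of it. The log2 fold change was 0.39 (standard error 0.17), with an unadjusted limma p of 0.0303 and an adjusted p of 0.716. RPL22L1 was at -0.79, 0.077 and 0.34 in AD dogs and -0.26, 0.32 and 0.75 in healthy dogs, and 19 of 20 AD dogs had a value under the healthy mean. In the dog's channel alone the difference was -0.082. Its log2 fold change of -0.38 (standard error 0.15) had an unadjusted limma p of 0.0162 and an adjusted p of 0.593. RPL7L1, which takes part in ribosome assembly, was at -1.29, -0.48 and 0.21 against -0.60, -0.19 and 0.33, and its log2 fold change was -0.23 (standard error 0.17). RPL3L, known from muscle, had 0.077 (standard error 0.21). Only the 45 names of the subunits and the stalk were then counted, a choice made after seeing the data. Of these, 39 had a higher mean in AD dogs (47.9% of all probes), and the median was 0.16. RPS14 and RPL35 were the 2 of the 45 with an unadjusted limma p under 0.05, against 6.12% of all probes.

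The value of RPL22L1 depended on the probe. The other 2 probes of the gene, which overlap each other, gave log2 fold changes of 0.14 (95% confidence interval -0.31 to 0.59) and 0.031 (-0.39 to 0.45). The brightest probe shares 16 to 19 bases of its end, the capitals printed above, with 15 probes under 14 other names. Of these names 6 are gene symbols, namely RHAG, a red cell membrane protein, SH3YL1, IVD, FBF1, NBL1 and PTK7. Whether the rest stand for other genes was not tested. Of these 15 probes, 14 had a negative log2 fold change and an unadjusted limma p under 0.05, as did 4.46% of all probes. NBL1 was the exception at 0.072. Their median was -0.44, close to the -0.38 of the RPL22L1 probe. In 11 of the 15 the dog's channel had a median processed signal above 300000 as did 54 of the 30202 probes tested (0.179%). The brightest RPL22L1 probe, at 488314, was among those 54. Whether it reads RPL22L1 mRNA was not tested.

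In some dogs most of the genes lay on one side of the reference, whereas in others they were split around it. The median log2 ratio over the 49 genes was -0.66 to 0.13 in healthy dogs, with a mean of -0.22 ± 0.26 (SD, n = 8). In AD dogs it was -0.76 to 0.49, with a mean of -0.041 ± 0.34 (SD, n = 20). In AD dog 7 only 5 of 49 genes were above 0, and in AD dog 11 45 were. Healthy dog 5 was the lowest of its group, with 3 genes above 0, and healthy dog 8 the highest, with 37. Split dogs included healthy dog 1, with 22 of 49 genes above 0, AD dog 3, with 26, and AD dog 10, with 29. Both subunits took part, since the large subunit median spanned -0.76 to 0.49 over AD dogs and the small subunit median -0.81 to 0.57. The place of AD dog 7 depended on the processing. With normexp and loess, its median over the genes was 0.34 and that of AD dog 11 was 0.57. Without subtraction of the array median AD dog 7 was at -0.70, and in the dog's channel alone at -0.64.

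**Figure D2:**
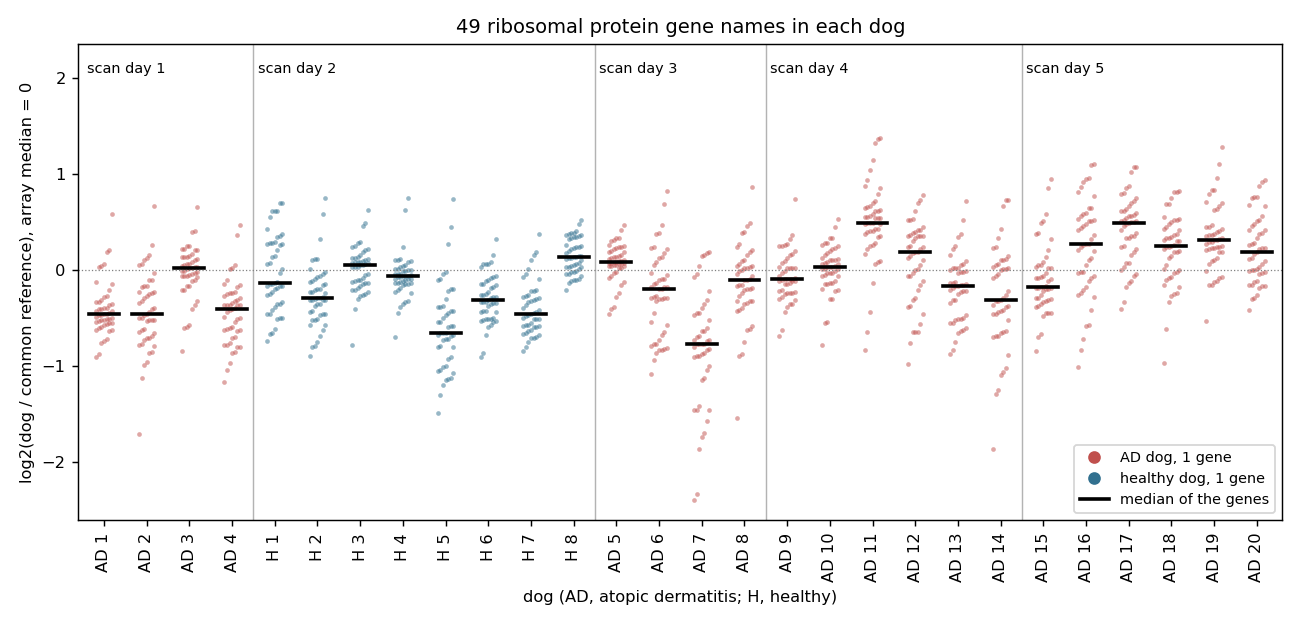
Log2 ratio of dog to common reference for the 49 genes (points) in each of the 28 dogs on the horizontal axis, with the median of the genes as a black bar and the dogs in order of scan day. The bars run from -0.76 in AD dog 7 to 0.49 in AD dogs 11 and 17, and 5 of the 6 dogs of scan day 5 are above 0.

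To measure how far the genes varied together, the median of the other 48 genes was subtracted from each gene in each dog. The median SD over AD dogs was 0.41 before and 0.29 after, and the SD became smaller for 40 of the 49 genes. When the median of the 49 genes was subtracted from every probe, the SD became smaller for 21.6% of the 30202 probes, and their median SD went from 0.43 to 0.53. In healthy dogs the SD became smaller for 37 of 49 genes (0.32 before, 0.23 after), against 21.7% of all probes. Without the dogs of scan day 5, an alternative chosen after seeing the data, it was again 40 of 49 genes over 14 AD dogs (0.38 before, 0.27 after).

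The genes that followed the others most closely were RPS10, RPL24, RPS3 and RPS18. The subtraction removed 91.1%, 88.5%, 88.0% and 84.7% of their variance between AD dogs. RPS10 and RPS3 are neighbours at the entry of the mRNA channel, and RPL24 forms a bridge between the subunits. These 4 were picked after their values were seen. For 9 genes the SD did not become smaller, and these were RPL18, RPL22, RPL26, RPL28, RPS14, RPS15 and, of the other names, RPL22L1, RPL3L and RPS19BP1. Several of the 9 varied little to begin with, as the diagram of SD before and after shows. The median over the genes had an SD of 0.34 over AD dogs, against 0.20 for RPS14. Subtracting a median that varies more than a gene can raise the gene's SD even where both rise and fall together. For such genes the measure cannot tell whether they varied with the others. Over healthy dogs the SD fell for RPS14 (0.24 to 0.13) and RPL18 (0.24 to 0.15) and rose for the rest of the 9.

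**Figure D3:**
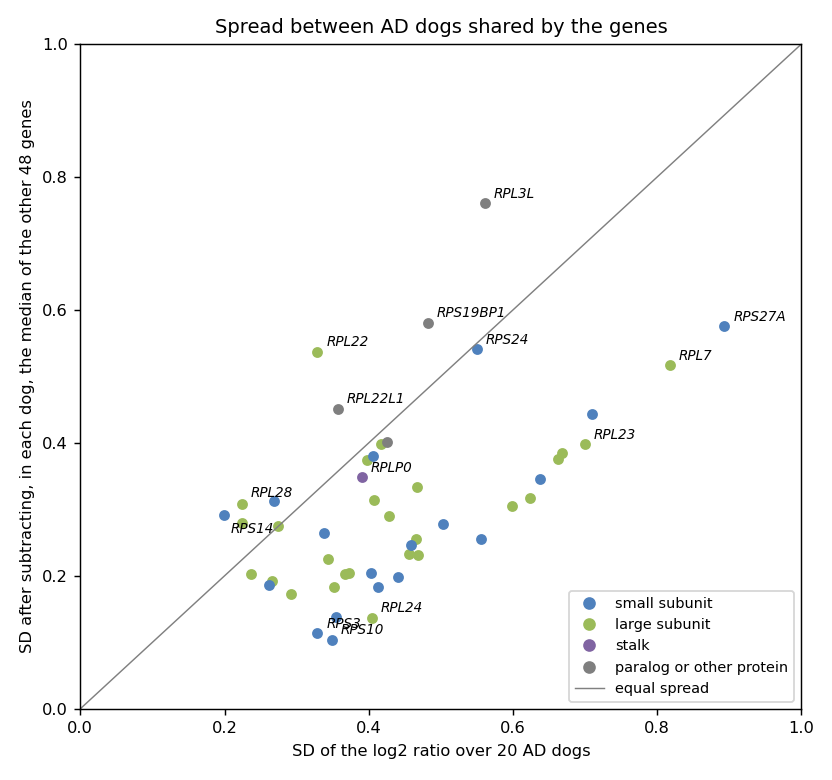
SD of the log2 ratio over 20 AD dogs (horizontal axis) against the SD after the median of the other 48 genes was subtracted in each dog (vertical axis), 1 point for each gene, coloured by role. The 40 points below the diagonal line of equal spread include RPS27A, RPL7 and RPS10, and 3 of the 4 paralogs or other proteins lie above it.

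The genes differed widely in how much they varied. RPS27A, made as a fusion of ubiquitin and a small subunit protein, had the largest SD over AD dogs, 0.89. Its log2 ratio was -2.33, -0.16 and 1.36 in AD dogs and -1.14, -0.11 and 0.61 in healthy dogs. AD dog 7 was at the bottom and AD dog 11 at the top. RPL7, a large subunit protein, followed with an SD of 0.82 and values of -2.39, 0.016 and 1.37 against -1.12, 0.089 and 0.70, with the same 2 dogs at the ends. The log2 fold changes of these genes were 0.22 (standard error 0.32) and 0.045 (standard error 0.31). At the other end were RPS14 (SD 0.20), RPL28 (SD 0.22) and RPL26 (SD 0.22). After the subtraction, RPS27A and RPL7 still varied with SDs of 0.58 and 0.52.

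**Figure D4:**
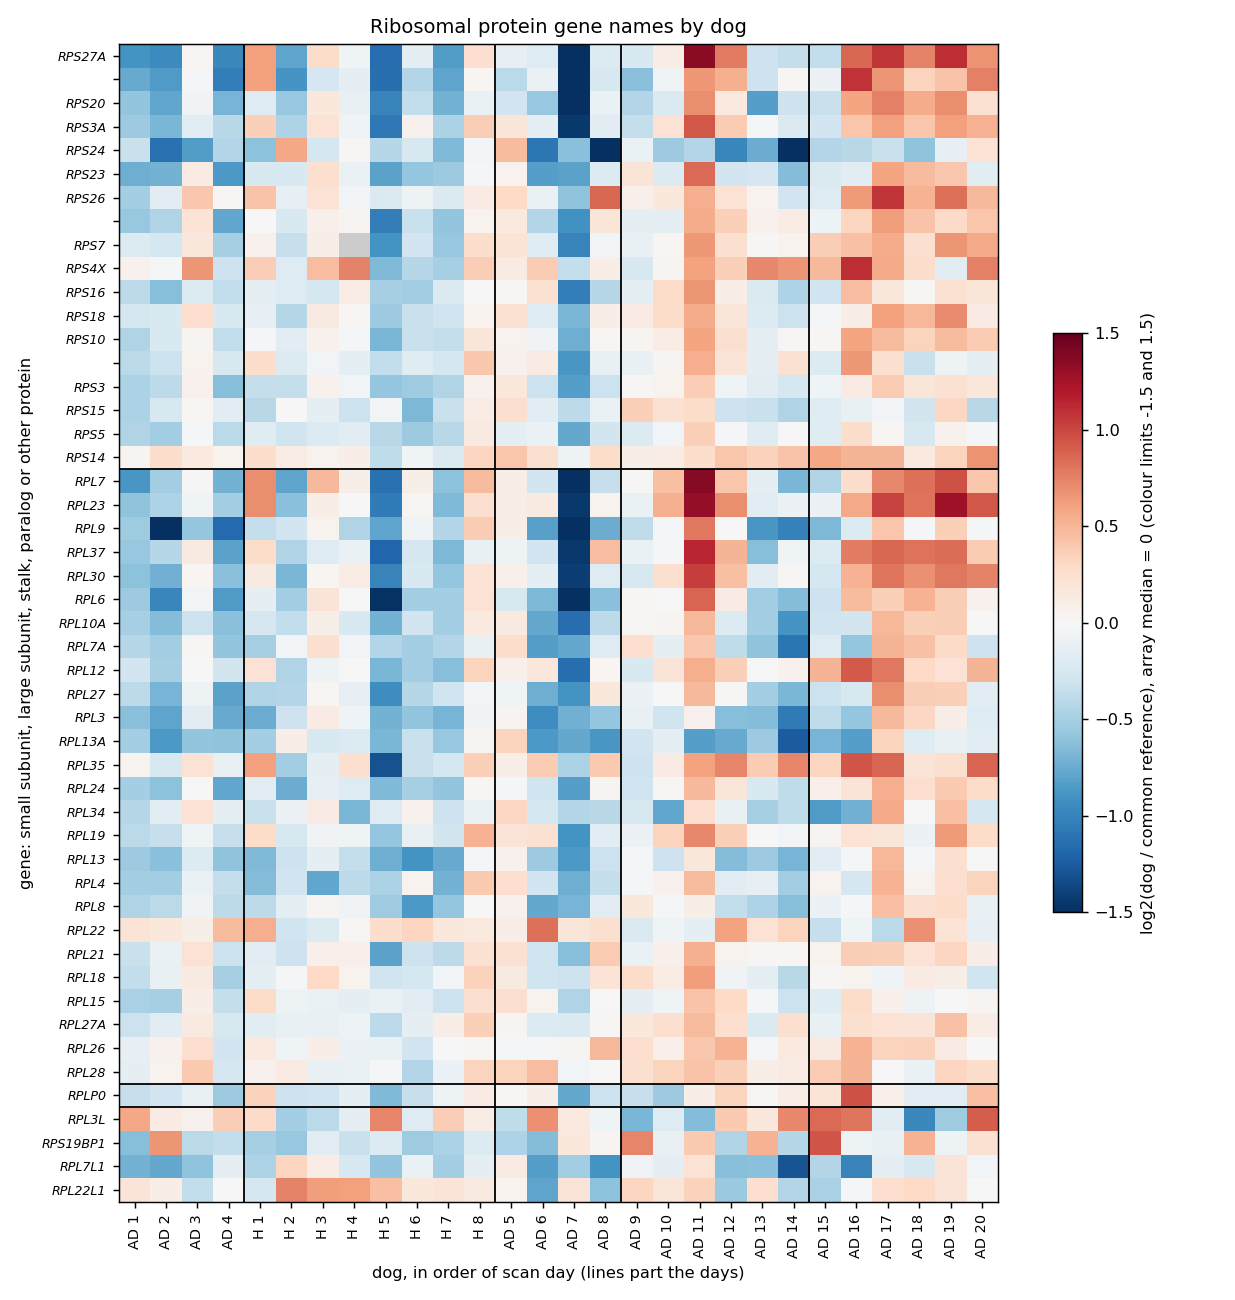
Log2 ratio of dog to common reference for each of the 49 genes (rows, grouped by role and ordered by SD over AD dogs) in each dog (columns, in order of scan day), with blue below and red above the reference and 1 missing value in grey. AD dog 7 and healthy dog 5 are blue, and AD dogs 11 and 17 red, along most rows of both subunits.

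Scan days and slides moved with this level. The median over the 49 genes was -0.45 to 0.017 in the 4 AD dogs of scan day 1, -0.76 to 0.083 on day 3, -0.31 to 0.49 on day 4 and -0.18 to 0.49 on day 5. The mean of the 6 AD dogs of day 5 was 0.22 ± 0.22 (SD), and that of the other 14 AD dogs was -0.15 ± 0.32 (SD). Healthy dogs, all of day 2, had -0.22 ± 0.26. Between slides of AD dogs, limma's moderated F test called 1 of the 49 genes, RPL6, with an adjusted p of 0.0764, and 5.28% of all probes. At an unadjusted p under 0.05 there were 15 of 49 genes and 16.5% of all probes. With normexp and loess, 0 genes were called, and the medians were -0.40 to 0.036 on day 1 and -0.018 to 0.47 on day 5. Day 3 then had -0.19 to 0.34, with its middle value at 0.067 instead of -0.15. Day 4 had -0.16 to 0.57, and the healthy dogs of day 2 had -0.62 to 0.20. The part of slide or day in these levels was not tested apart from the dogs on it.

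As a control, the pooled reference RNA was compared between the arrays that held AD dogs and those that held healthy dogs. In the quantile normalized Cy3 channel, limma called 14 of the 49 genes at the threshold of 0.085, 5 of them higher on the arrays of AD dogs, and 39.1% of all probes. The median difference over the genes was -0.015. Among the largest were RPL22 (-0.51, adjusted p 0.018), RPL3L (-0.43, adjusted p 0.00124) and RPL26 (-0.37, adjusted p 0.0106). For RPL26 the size of this difference exceeds that of the log2 fold change of the ratio, 0.19. The reference is the denominator of the ratio, so a lower reference raises it. These RPL22, RPL3L and RPL26 probes were dim, with median processed signals of 247, 571 and 916 in the reference channel. For RPS14 the reference differed by 0.034 and for RPL22L1 by 0.045, with adjusted p-values of 0.706 and 0.661. For RPL35 it differed by -0.21 (adjusted p 0.048), and in the dog's channel alone RPL35 had a difference of 0.21 against 0.47 for the ratio. For RPS19BP1 the reference differed by -0.072 (adjusted p 0.297). In the dog's channel alone, quantile normalized, 0 of the 49 genes and 4.14% of all probes were called. There 34 genes had a higher mean in AD dogs, and the median was 0.10. RPS14 then had the smallest p, with a log2 fold change of 0.31 and an adjusted p of 0.12 (up to 0.996 in the other alternatives), while RPL26 changed sign to -0.18. The median over the genes had an SD over AD dogs of 0.38 in the dog's channel and 0.13 in the reference channel.

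Several probes were present for 27 of the genes, and they gave a check within a gene. The log2 fold changes of a gene's probes differed by 0.16 in the median of the 27, and by under 0.1 in 12 of them. In 9 genes the probes differed in sign. The overlapping RPL15 pair printed above gave -0.0084 and 0.0055, and the RPL27 pair gave 0.16 and 0.15. Overlapping probes did not always read alike, since the overlapping RPL22L1 pair gave 0.14 and 0.031, with means in AD dogs of -0.037 and -0.57. The largest differences between probes were those of RPL22L1 and then RPS3A. RPS3A, a small subunit protein, had 0.13, 0.29 and -0.12 with its 3 probes, the last of them with a median processed signal of 139. None of these 3 values had an unadjusted p under 0.05.

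The settings compared for the whole group are shown together in a plot of the median log2 fold change. Array weights and the dog number block aside, the settings shown gave 0.055 to 0.25.

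**Figure D5:**
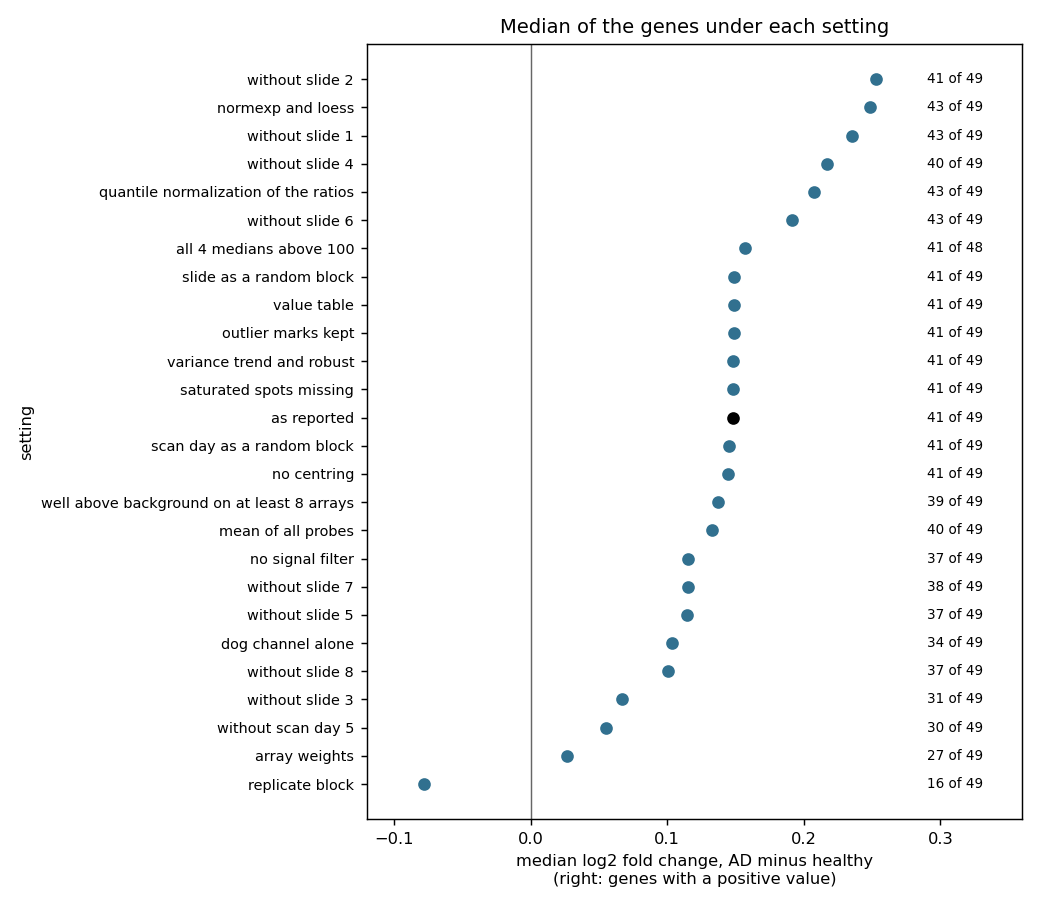
Median log2 fold change over the genes, AD minus healthy (horizontal axis), under each setting of the analysis (vertical axis), with the reported setting in black and the number of genes with a positive value at the right. The median is 0.15 as reported, 0.055 without scan day 5, 0.027 with array weights and -0.078 with dog number as a block.

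Other genes of translation were read from lists of their own. Of 16 names that make ribosomal proteins under other symbols, elongation factors or partners, 11 were tested and 0 had an unadjusted p under 0.05, with a median log2 fold change of 0.026. RPSA and FAU, which encode small subunit proteins, were at -0.13 (standard error 0.18) and -0.0043 (standard error 0.086). GNB2L1, the scaffold RACK1 on the small subunit, was at -0.13 (standard error 0.11). Of the elongation factors, EEF1A1 was at -0.060, EEF1B2 at 0.18 and EEF2 at 0.58. EEF2 was -0.33, 0.22 and 3.26 in AD dogs but -0.28, 0.0087 and 0.25 in healthy dogs, so that the highest AD dog was far above all healthy dogs, while the median of AD dogs was within their range. Its adjusted limma p was 0.866. TPT1, an abundant growth-related protein, was at 0.33, NACA, a chaperone of new chains, at 0.085, PABPC1, which binds poly(A) tails, at 0.026, and the histone chaperone NAP1L1 at -0.15. EEF1D, EEF1G, BTF3, HNRNPA1 and the symbol RACK1 were not among the array's names. In the same subtraction as above, the SD over AD dogs became smaller for 5 of these 11 genes.

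Ribosomal proteins of the mitochondrion stood at a median log2 fold change of -0.0027 over 61 of 62 genes, of which 30 had a higher mean in AD dogs. At an unadjusted p under 0.05 there were 5 (4 higher, 1 lower), near the 6.12% of all probes, and 0 passed the adjusted threshold. Of 27 names for ribosome assembly, such as nucleolar proteins and subunits of RNA polymerase I, 17 were tested, with a median of -0.062 and 0 at an unadjusted p under 0.05. Subtraction of the ribosomal protein median made the SD smaller for 28 of the 61 mitochondrial genes and for 10 of the 17 assembly genes.

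Markers of blood cell types were set beside the level of the ribosomal protein genes. None of the 42 measured markers had an unadjusted p under 0.05 between AD and healthy dogs. The median log2 fold changes were -0.053 for T cells (7 of 8 listed genes measured), -0.32 for B cells (7 of 7), 0.18 for neutrophils (8 of 9), -8.0e-05 for monocytes (5 of 5), 0.51 for erythroid cells (7 of 10), -0.37 for platelets (5 of 7) and 0.12 for leukocytes at large (3 of 3). CD5, HBB, HBA1 and PF4 were not among the array's names, and MPO and TUBB1 did not pass the filter. The summed level of a list was read as its median in each dog. For T cells it was -1.11 to 0.39 in AD dogs and -0.61 to 0.33 in healthy dogs, for neutrophils -0.30 to 1.03 and -0.29 to 0.53, and for erythroid cells -1.46 to 1.54 and -1.36 to 1.22. Subtraction of the ribosomal protein median made the SD over AD dogs smaller for 5 of 7 T cell markers and 4 of 7 B cell markers. It did so for 0 of 8 neutrophil, 0 of 5 monocyte, 0 of 7 erythroid and 0 of 5 platelet markers. For leukocytes at large it was 1 of 3, and over all probes 21.6%. In healthy dogs the split was less clear. There it was 6 of 7 T cell, 3 of 7 B cell, 1 of 8 neutrophil and 0 of 5 monocyte markers. It was 3 of 7 erythroid, 2 of 5 platelet and 2 of 3 leukocyte markers, against 21.7% of all probes. The part of cell type shares in the level of the ribosomal protein genes was not tested.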

How the data were processed

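Agilent Feature Extraction 10.7.3.1 was used by the authors to make the deposited spot intensities, on a linear scale after background subtraction and Lowess dye normalization. The deposited table of the whole series holds log10 ratios of dog over common reference, and 94.2% of its values lay within 0.001 of the ratio of processed signals. From the processed signals, log2(Cy5/Cy3) was calculated, spots of 1 probe were averaged (43803 spots, 43603 probes), and spots marked as outliers were set to missing, which left out 1 of the values of the genes described (RPS7, in 1 healthy dog). Probes were kept when at least 1 of the 4 medians (each channel in each group) of the processed signal exceeded 100, the spot was well above background in either channel of any array, and values were present for 1 in 2 or more arrays per group. The median of each array was then subtracted. Control spots were left out. limma 3.58.1 (R 4.3.3) compared AD with healthy dogs over 30202 probes, with Benjamini-Hochberg adjustment and a threshold of 0.085, the adjusted p at which the authors listed their transcripts. The authors' filter kept fewer transcripts, and their fit made calls at this value, whereas 0 probes were called here. The reason for this difference was not tested. The script was checked on simulated data.

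Precision is limited by how many arrays there are, and the dog's RNA was always labelled with Cy5, so that dye and dog were not swapped. Each dog gave 1 array. The gene names and lists were chosen with earlier results of these data known. Genes named are RPLP0, the 8 with the smallest p, the 3 largest differences each way and the 3 largest and 3 smallest SDs in AD dogs. The 3 whose probes differ most, the 4 paralogs or other proteins and the genes of the translation list are named too. So are RPS19, RPLP1, RPLP2, RPL5 and RPL11 (the first 4 by description, the last not reported). A few of these genes and their sequences are not reported here, and their rows in the figures carry no name. Alternatives are given in the closing section.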

Additional observations from a re-analysis of the deposited data

How the results depend on the processing

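With 0 of the 49 genes past an adjusted p of 0.085, no alternative made a call among them. The number at an unadjusted p under 0.05, 4 as reported, was 11 with normexp and loess (5.58% of all probes) and 9 with quantile normalization of the ratios (7.36%). It was 14 without slide 1 (5.7%), 2 without slide 3 (2.6%) and 11 without slide 4 (6.35%). Without scan day 5 it was 2 (9.29%), and it was 2 without the 4 paralogs or other proteins (6.12%). It was 2 to 12 with 1 dog left out, namely 2 without healthy dog 5, 7 without healthy dog 3 or AD dogs 1 or 2, 9 without AD dog 4, 10 without healthy dog 8 and 12 without AD dog 7 (5.03% to 6.58% of all probes in these 7 settings). Over all probes, 0 were called as reported, 849 with array weights, 3 without the signal filter, 1 with probes well above background on at least 8 arrays and 1251 with the dog's channel alone. The number with a higher mean in AD dogs, 41 as reported, was 27 with array weights and 34 to 44 with 1 dog left out. The median, 0.15 as reported, was then 0.11 to 0.20, the large subunit median 0.079 to 0.20 and the small subunit median 0.14 to 0.26. The 1 gene called between slides of AD dogs was 0 with normexp and loess. Dog number as a replicate block gave 2 genes at an unadjusted p under 0.05 (17.1% of all probes), 16 of 49 genes higher in AD dogs and a median of -0.078 (large subunit -0.077, small subunit -0.077). Only the dogs numbered 1 to 8 occur in both groups, so by construction this block leaves the comparison to the AD dogs 1 to 8. The pairs are different dogs, and the correlation of their deviations was above 0.1 in 4 of 8 pairs, so the numbers were not taken as pairs.

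Changes of sign among the genes named were as follows. With the dog's channel alone, RPLP0 was -0.0031, RPL26 -0.18, RPL7L1 0.072 and RPL3L -0.33. With array weights, RPLP0 was -0.013, RPS27A -0.097, RPL7 -0.22 and RPS3A -0.096. With the replicate block, RPLP0 was -0.11, RPL37 -0.041, RPS27A -0.47, RPL7 -0.54 and RPS3A -0.29. RPL3L was -0.15 without slide 2. Without slide 3, RPS27A was -0.019, RPL7 -0.16 and RPS3A -0.016, and RPL7 was -0.11 without slide 5 and -0.092 without slide 8. Without scan day 5, RPLP0 was -0.015, RPS27A -0.076, RPL7 -0.17 and RPS3A -0.040. With 1 dog left out, RPL7 was -0.10 to 0.17 and RPS3A -0.0059 to 0.20. RPS14, RPL35, RPS19BP1, RPL22L1 and RPS24 kept their sign in all 53 alternatives run for each. For RPL22L1 these gave -0.49 to -0.069, whereas its other 2 probes taken alone gave 0.14 and 0.031, so its sign depended on the probe. The cause of these changes was not tested.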
